A study of Mus musculus with 6 samples.

Results

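The aminoacyl-tRNA synthetases are the enzymes that join each amino acid to the transfer RNAs that carry it to the ribosome. The members were the rows of the deposited table whose gene name was that of a synthetase on a list of 32 genes, and all 32 were found among the 36976 genes of the table. They comprised 20 genes for cytosolic enzymes and 12 genes for mitochondrial enzymes, the latter with symbols that end in 2, and the 2 groups were described apart. Symbols are those of the deposited table, in which Lars, for example, is the gene now called Lars1.

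Gene expression was measured by RNA sequencing in long-term (LT) stem cells of chronic myelogenous leukaemia (CML), the most primitive cells of this disease, sorted from bone marrow as CD150+ CD48- CD135- Lineage- Sca-1+ cKit+ cells. Both groups were tet-CML mice on the C57BL/6 background, which carry the transgenes SCL-tTA and TRE-BCR-ABL1. In these mice the stem cell leukaemia promoter drives a transactivator in blood stem and progenitor cells, and withdrawal of doxycycline turns on the BCR-ABL1 oncogene, 5 weeks before the cells were taken. Oncogene expression was induced at 5 weeks of age, and both groups were therefore leukaemic. The groups were Gdpd3+/+ (replicates 1, 2 and 3) and Gdpd3-/- (replicates 5, 6 and 7), the latter with a small genome-edited deletion early in the coding sequence of Gdpd3, which encodes a lysophospholipase D enzyme. The triplicate samples of Gdpd3+/+ came from 22 males and 12 females and those of Gdpd3-/- from 5 males and 5 females, so that animals were pooled. How the animals were divided among the libraries is not given in the sources used here, and p-values measure the spread between these libraries, which may be partly technical.

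The comparison asks how loss of Gdpd3 alters the transcripts of CML stem cells. Levels are given in FPKM, the fragments per kb of gene length, scaled to a fixed total per library. Gdpd3 itself was at 7.30, 3.29 and 2.95 FPKM in Gdpd3+/+ replicates 1, 2 and 3 and at 0.110, 0.0129 and 0.681 FPKM in Gdpd3-/- replicates 5, 6 and 7, with a fitted log2 change of -4.00 and an adjusted p of 0.0588. The depth inferred from the values was 4.98 to 6.28 gigabases (Gb) in the Gdpd3+/+ libraries and 2.13 to 3.64 Gb in the Gdpd3-/- libraries, a ratio of medians of 2.44, so genotype and depth cannot be told apart. In the library where it had the fewest, each member had about 146 reads or more, the lowest being Ears2. Markers of other cells also moved with the genotype. All 18 skeletal muscle markers on a fixed list were higher in every Gdpd3-/- library than in any Gdpd3+/+ library, beside 23.5% of all genes tested. Their median log2 change was 2.83, largest for Actn3 at 2.91, and none passed the adjusted threshold. Without Gdpd3-/- replicate 7 all 18 passed it, with a median of 3.68, in a fit in which 14.2% of all genes passed. The summed level of these markers was 902 to 1334 FPKM in Gdpd3+/+ and 11576, 16619 and 2220 FPKM in Gdpd3-/- replicates 5, 6 and 7. Neutrophil markers summed to 29983 to 32834 FPKM in Gdpd3+/+ and 8446 to 13996 FPKM in Gdpd3-/-. All 12 had a fitted change below 0, beside 34.9% of all genes tested. Of the 12, 6 passed the adjusted threshold as lower (Camp, by 1.93 on the log2 scale, Elane, Ngp, Ltf, Cebpe and Prtn3), beside 0.616% of all genes tested. Plasma cell markers summed to 2442 to 3111 FPKM and 1147 to 2020 FPKM. All 10 had a fitted change below 0, and 3 of them passed the threshold (Irf4, Xbp1 and Mzb1). The lowest fitted value was -2.77 for Prdm1, which did not pass. Of 9 erythroid markers found, none passed (median log2 change -0.61, lowest -1.61 for Slc4a1), and their summed level was 457 to 526 FPKM and 177 to 482 FPKM. Transcripts of long-term stem cell markers were present in both groups, which does not show that the sorted populations were alike. The 10 markers summed to 582 to 656 FPKM and 596 to 849 FPKM (median log2 change 0.16, Hlf highest at 0.57 and Slamf1 lowest at -0.38, none past the threshold). A list of 8 genes for the negative sort gates included Ptprc, of whose protein the B220 form alone was gated out. Of these 8, 7 entered the test and Flt3, which encodes CD135, was the single one past it (log2 change 1.93, with Itgam lowest at -1.82). Cd8a was at or near 0. No marker of the muscle, neutrophil, plasma cell or erythroid lists was at 0 in all libraries, and their part in the results on the synthetases was not tested. In bulk RNA, fewer cells of a type and less RNA per cell cannot be told apart.

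Each synthetase recognises its amino acid and its transfer RNAs, activates the amino acid with ATP and transfers it to the RNA, in the step that sets the accuracy of translation. The cytosol and the mitochondrial matrix each need a set of charged transfer RNAs, and in mammals most mitochondrial enzymes are encoded by nuclear genes of their own, whereas Gars and Kars each give rise to both forms of their enzyme. The enzymes fall into class I and class II by the fold of the catalytic domain. In the cytosol several of them are bound together, with scaffold proteins, in the multi-synthetase complex. Many cytosolic synthetase genes are targets of the amino acid response, in which the kinase GCN2 senses uncharged transfer RNA and the transcription factor ATF4 acts at a DNA element shared by its target genes.

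All 32 members were expressed in every library. In Gdpd3+/+ cells the cytosolic enzymes spanned 11.1 ± 1.5 FPKM for Cars (cysteine; mean ± SD, n = 3) to 104 ± 4 FPKM for Dars (aspartate). Next below Dars came Gars (glycine) at 75.9 ± 2.3, Vars (valine) at 65.5 ± 2.7, Nars (asparagine) at 61.2 ± 0.8 and Kars (lysine) at 54.3 ± 3.7 FPKM. Each of these stood clear of its neighbour, in that no library of the lower gene reached a library of the higher. Over the whole order, 9 of 19 neighbouring cytosolic pairs were apart in this sense and 10 overlapped, for example Farsb and Hars, or Lars, Eprs and Rars. The order also rests on the gene length by which FPKM is divided, from 1987 bases for Hars to 9282 for Aars. By approximate reads, Vars was above Dars in each Gdpd3+/+ library, for example at 15785 against 11366 in replicate 2. Both subunits of phenylalanyl-tRNA synthetase, which assemble as a tetramer of equal numbers, differed in FPKM, with Farsa at 23.6 ± 2.1 and Farsb at 47.6 ± 1.7. Their approximate reads were closer. In Gdpd3+/+ replicates 1, 2 and 3 these were 3436, 4932 and 4078 for Farsa and 3741, 5064 and 4714 for Farsb. Most of the difference in FPKM thus rests on the gene lengths used as divisor, 4538 bases for Farsa and 2444 for Farsb. Of the exonic bases of Farsb, 10.8% are shared with Sgpp2, and the libraries do not mark strand, so reads there cannot be assigned to 1 gene with certainty.

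The mitochondrial enzymes lay at the lower end of this range or under it, with 1 exception. Wars2 (tryptophan) was lowest, at 1.71 ± 0.13 FPKM in Gdpd3+/+, and Rars2 (arginine) was at 18.3 ± 0.8 FPKM, whereas Lars2 (leucine) was listed at 232 ± 21 FPKM, above every other synthetase gene of either compartment. Of 11 neighbouring pairs in the mitochondrial order, 5 were apart. The remaining members between Rars2 and Yars2, namely Tars2, Fars2, Iars2 and Sars2, lay between 10.9 and 18.3 FPKM as group means, and from Tars2 down to Yars2 each overlapped its neighbour.

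**Figure D1:**
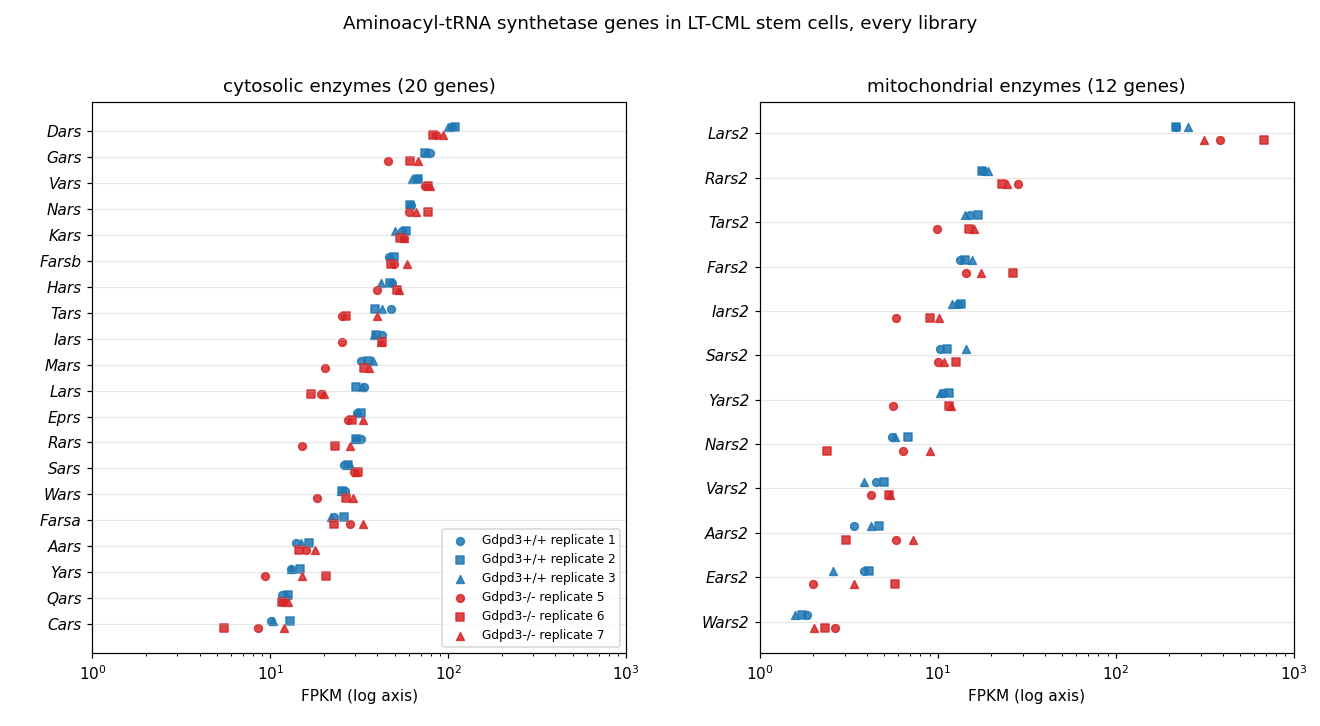
FPKM on a log axis for each of the 20 cytosolic (left) and 12 mitochondrial (right) synthetase genes, ordered by the Gdpd3+/+ mean, with each library as a point (blue, Gdpd3+/+ replicates 1, 2 and 3; red, Gdpd3-/- replicates 5, 6 and 7). The Gdpd3+/+ points lie close together, the Gdpd3-/- points are wider apart for 28 of 32 genes, and Lars2 stands far to the right of the other mitochondrial genes.

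Across genotypes, 1 of 32 synthetase genes passed the threshold: Lars, the cytosolic leucyl-tRNA synthetase, fell in Gdpd3-/- cells. The test was limma across all 24689 genes with a mean of at least 0.05 FPKM, on log2(FPKM + 0.1), with p-values adjusted over all of them by the Benjamini-Hochberg method and a threshold of 0.05. In that fit 422 genes passed, or 1.71% of those tested, with 1.09% higher and 0.616% lower in Gdpd3-/-. For genes with a mean of at least 1 FPKM, which include every member, 2.44% passed, with 1.58% higher and 0.854% lower. A count of 1 in 32 is thus near the background. By the unadjusted p under 0.05, 8 of 32 members were past it, 3 higher and 5 lower, beside 22.2% of all genes tested, 16.5% higher and 5.76% lower. For genes at 1 FPKM or more these shares were 29.5%, 22.0% and 7.44%.

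Lars belongs to class I and sits in the multi-synthetase complex, and its protein is also known as a leucine sensor upstream of mTORC1. The gene (ENSMUSG00000024493.7) lies on chromosome 18. Its level was 33.8, 30.4 and 32.5 FPKM in Gdpd3+/+ replicates 1, 2 and 3, and 19.3, 17.0 and 19.99 FPKM in Gdpd3-/- replicates 5, 6 and 7. The 2 groups did not overlap, and the 3 libraries within each lay close together. The mean in Gdpd3+/+ was 1.72 times that in Gdpd3-/-, with a fitted log2 change of -0.78 (SE 0.11, 95% interval -1.04 to -0.51, limma adjusted p 0.0334). The exact two-sided permutation test of the means gave p = 0.1, which is the smallest that 3 libraries against 3 allow. Ordered by mean level, Lars was number 11 of the 20 cytosolic enzymes in Gdpd3+/+ and number 16 in Gdpd3-/-. No exonic base of Lars is shared with another gene of the table, and no other gene had a transcript with an alignment to it of at least 150 bases at 95% identity. About 1061 reads in the shallowest library lay behind the value. The call depended on the libraries used: Lars did not pass when any 1 of the 3 Gdpd3+/+ replicates or Gdpd3-/- replicate 5 was left out, with a fitted change of -0.74 to -0.82 and an adjusted p of up to 0.214, and it did not pass with array weights (adjusted p 0.0613) or without the intensity trend (0.119). Its direction was the same in all of these. In simulated data with some genes changed, by more than Lars was, calls of this fit were false more often than the nominal rate. The excess was larger where each group was given its own spread. Each setting had a single draw, so these rates are imprecise and do not measure the call of Lars itself. The coefficient of variation of Lars was 5.36% in Gdpd3+/+ and 8.28% in Gdpd3-/-.

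None of the other 7 cytosolic enzymes of the multi-synthetase complex passed the test. Dars was at 104, 108 and 99.9 FPKM in Gdpd3+/+ and at 85.7, 81.7 and 93.9 FPKM in Gdpd3-/-, with no overlap between groups and a log2 change of -0.26 (adjusted p 0.172). Rars, the arginyl enzyme, was at 32.4, 30.1 and 29.8 FPKM and at 15.0, 22.9 and 28.2 FPKM, again without overlap, though the Gdpd3-/- libraries ranged widely (log2 change -0.52, adjusted p 0.235). Mars, the methionyl enzyme, was at 32.4 to 37.8 FPKM in Gdpd3+/+, and 1 of the Gdpd3-/- libraries, replicate 5 at 20.4 FPKM, lay under that range while replicates 6 and 7 were inside it. Iars, the isoleucyl enzyme, had a similar arrangement, with replicate 5 at 25.2 FPKM against 38.3 to 42.4 FPKM in Gdpd3+/+, and replicates 6 and 7 at 42.5 and 41.9 FPKM. Its transcript is 96.0% identical over 1656 bases to that of Gm4849, so the level of Iars is uncertain to that extent. Kars (log2 change 0.03), Qars for glutamine (-0.02) and Eprs, the bifunctional glutamyl-prolyl enzyme (-0.07), lay nearest to 0. The intervals of Kars, Qars and Eprs reached from -0.34 to 0.26, so changes of that size remain possible. Eprs aligns over up to 207 bases, at 95% identity or more, with transcripts of 73 other genes. In all, 7 of 8 genes of complex enzymes had a fitted change below 0 (median -0.22), beside 34.9% of all genes tested and 38.5% of those at 1 FPKM or more, and 4 of 12 cytosolic genes outside the complex did (median 0.08). These are counts without a test, and direction depends on the scaling for several genes, as given under the dependence on processing.

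The genes of the scaffold proteins of the complex had fitted changes above 0, while 34.9% of all genes tested were below 0. Aimp1 was at 31.6, 30.3 and 34.2 FPKM in Gdpd3+/+ and 45.2, 56.6 and 41.4 FPKM in Gdpd3-/- (log2 change 0.56, adjusted p 0.0891). Aimp2 was at 20.9, 24.7 and 21.8 FPKM against 43.9, 32.4 and 28.3 FPKM (0.61, adjusted p 0.117). In both genes each Gdpd3-/- library was above each Gdpd3+/+ library, and neither passed the threshold. Of all genes tested, 23.5% were higher without overlap in this way, and 28.2% of those at 1 FPKM or more. The third scaffold, Eef1e1, overlapped between groups (0.27, adjusted p 0.380), near the median of 0.24 for all genes tested.

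Of the 12 cytosolic enzymes outside the complex, none passed. Vars was at 66.9, 67.2 and 62.3 FPKM in Gdpd3+/+ and 73.5, 76.6 and 78.9 FPKM in Gdpd3-/-, and Sars, the seryl enzyme, was at 27.2 ± 1.1 FPKM against 30.3 ± 0.8 FPKM (mean ± SD, n = 3 each). These were the 2 cytosolic genes with every Gdpd3-/- library above every Gdpd3+/+ library, with log2 changes of 0.22 (adjusted p 0.196) and 0.16 (adjusted p 0.359). Vars shares 5.42% of its exonic bases with D17H6S56E-5. Gars had the reverse order, at 78.4, 73.8 and 75.4 FPKM against 45.9, 60.9 and 67.8 FPKM (log2 change -0.40, adjusted p 0.192). Tars, the threonyl enzyme, was at 47.5, 38.6 and 42.6 FPKM in Gdpd3+/+ and 25.2, 26.6 and 39.8 FPKM in Gdpd3-/- (-0.51, adjusted p 0.186). Here replicate 7 lay inside the Gdpd3+/+ range, and without it Tars passed the test (-0.72, limma adjusted p 0.0223), in a fit in which 14.2% of all genes passed. Nars, Hars, Farsa, Farsb, Aars, Wars, Yars and Cars overlapped between groups, with log2 changes from -0.41 for Cars to 0.24 for Farsa. Hars shares 9.81% of its exonic bases with Hars2, and the reference transcripts of Aars and Exosc6 have 1326 bases in common, so reads there are uncertain too. The same holds for Cars, with 214 bases in common with Gm15580. Yars aligns over up to 221 bases, at 95% identity or more, with transcripts of 25 other genes.

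Over all 20 cytosolic genes the median log2 change was -0.04, beside 0.24 for all genes tested and 0.14 for genes at 1 FPKM or more. Of the 20, 11 were below 0, and 17 were below 0.14. By fold of the catalytic domain, and over both compartments, 10 of 16 class I genes and 6 of 15 class II genes were below 0 (medians -0.04 and 0.06), Eprs holding a domain of each. The cytosolic groups of libraries did not overlap for 4 genes with lower Gdpd3-/- levels and 2 with higher, beside 8.27% and 23.5% of all genes tested (10.2% and 28.2% of those at 1 FPKM or more). Summed over the 20 genes, the cytosolic level was 803, 807 and 775 FPKM in Gdpd3+/+ and 665, 754 and 824 FPKM in Gdpd3-/- replicates 5, 6 and 7, so the groups overlapped. For comparison, 81 cytosolic ribosomal protein genes, the other large group of translation genes, had a median of 0.45 in the same fit and 10 of them passed, all higher in Gdpd3-/-. Of all genes tested, 1.09% passed as higher, and 1.58% of those at 1 FPKM or more. Since FPKM values are shares of each library, a list's position against 0 shifts with all other genes. After TMM scaling, which changed the median of all genes from 0.24 to 0.05, the cytosolic median was -0.25.

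**Figure D2:**
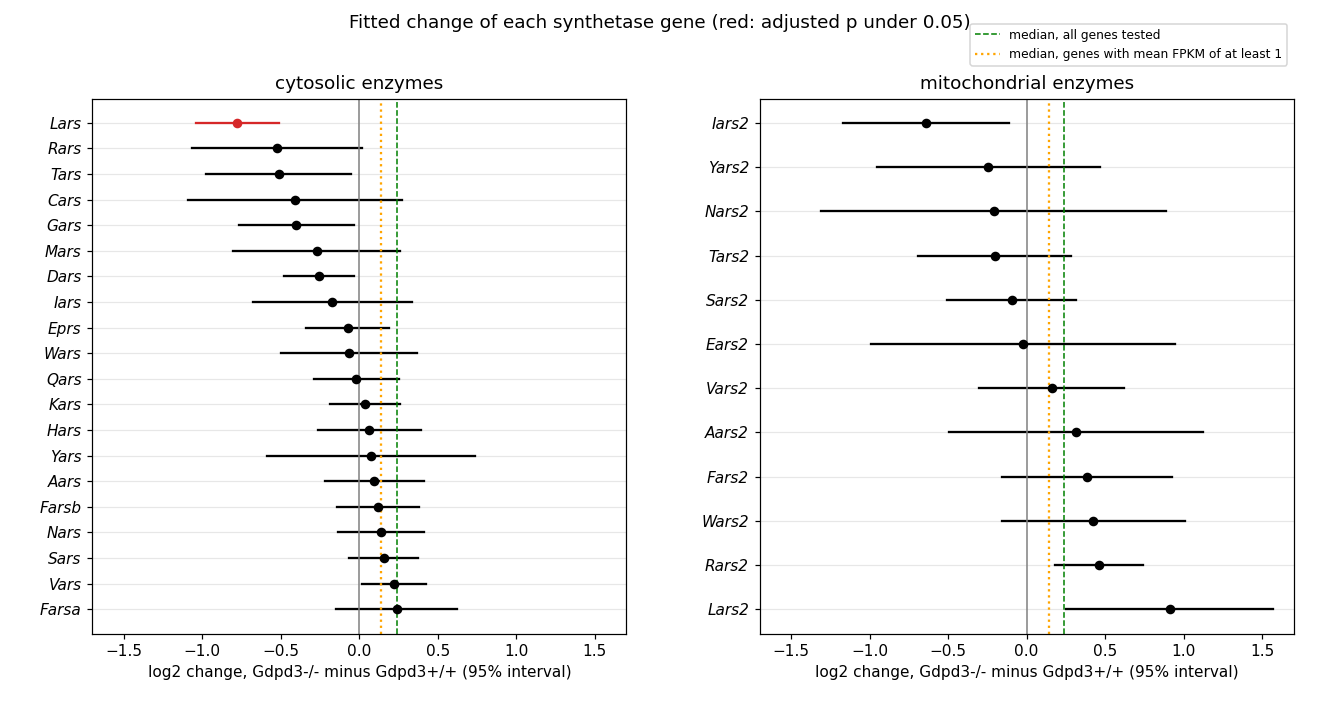
Fitted log2 change (Gdpd3-/- minus Gdpd3+/+, limma on log2(FPKM + 0.1)) of each cytosolic (left) and mitochondrial (right) synthetase gene, with its 95% interval as a bar. Lars (red, -0.78) is the single gene past the adjusted threshold; the dashed and dotted lines are the medians of all genes tested (0.24) and of genes at 1 FPKM or more (0.14), to the right of 17 of 20 cytosolic genes in the latter case.

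None of the 12 mitochondrial enzymes passed the threshold (limma, 3 of 12 with an unadjusted p under 0.05, 2 higher and 1 lower, beside 16.5% and 5.76% of all genes tested). Their median log2 change was 0.07, with 6 above 0 and 6 below, and the median was -0.14 after TMM scaling and -0.10 after quantile normalization. The groups did not overlap for 3 genes with higher levels in Gdpd3-/-, which were Lars2, Rars2 and Wars2, and for 1 with lower levels, Iars2. Beside 23.5% and 8.27% of all genes tested (28.2% and 10.2% at 1 FPKM or more), these counts are near the background.

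Rars2, the mitochondrial arginyl enzyme (ENSMUSG00000028292.8, mm9 chr4:34562206-34607416), was at 18.1, 17.6 and 19.1 FPKM in Gdpd3+/+ and 28.2, 23.0 and 24.5 FPKM in Gdpd3-/-. Its log2 change was 0.46 (SE 0.12, 95% interval 0.18 to 0.74, adjusted p 0.0938), and the mean was 1.38 times higher. Its cytosolic partner Rars lay on the other side of 0, and the ratio of Rars to Rars2 was 1.79, 1.71 and 1.56 in Gdpd3+/+ and 0.531, 0.998 and 1.15 in Gdpd3-/-. This ratio did not overlap between groups (exact two-sided permutation p = 0.1, the smallest possible, unadjusted over 12 pairs). Iars2, the mitochondrial isoleucyl enzyme (ENSMUSG00000026618.5, mm9 chr1:187108605-187153275), was at 13.0, 13.5 and 12.0 FPKM against 5.85, 9.09 and 10.2 FPKM, with a log2 change of -0.64 (SE 0.22, adjusted p 0.159). Of its exonic bases, 22.7% are shared with Rab3gap2 on the opposite strand, so part of the value may belong to that gene. Wars2 was at 1.84, 1.72 and 1.58 FPKM against 2.66, 2.33 and 2.03 FPKM (log2 change 0.42, adjusted p 0.350).

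The other 8 mitochondrial members overlapped between groups. Aars2 (alanine), Fars2 (phenylalanine) and Vars2 (valine) had fitted changes of 0.31, 0.38 and 0.16. Tars2 (threonine), Sars2 (serine), Yars2 (tyrosine), Nars2 (asparagine) and Ears2 (glutamate) had -0.20, -0.10, -0.24, -0.21 and -0.02. Several rested on 1 Gdpd3-/- library that lay apart from the others. Nars2 was at 2.39 FPKM in replicate 6 and at 6.36 and 8.999 FPKM in replicates 5 and 7, and Yars2 was at 5.61 FPKM in replicate 5 and at 11.6 and 11.9 FPKM in replicates 6 and 7. Fars2 was at 26.4 FPKM in replicate 6 and at 14.4 and 17.5 FPKM in the others. The reference transcripts of Fars2 and Nrn1 have 503 bases in common, those of Vars2 and Gm20483 339, and those of Nars2 and C230038L03Rik 284. Reads there are uncertain. The intervals were wide in consequence, for example -1.31 to 0.89 for Nars2.

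Lars2, the mitochondrial leucyl enzyme (ENSMUSG00000035202.7, mm9 chr9:123276058-123371782), had the highest level and the widest difference. It was listed at 219, 219 and 256 FPKM in Gdpd3+/+ replicates 1, 2 and 3 and at 384, 680 and 315 FPKM in Gdpd3-/- replicates 5, 6 and 7. The groups did not overlap, and replicate 6 was far above the other libraries. The log2 change was 0.91 (SE 0.28, 95% interval 0.25 to 1.57), and it did not pass (limma adjusted p 0.125). Without Gdpd3-/- replicate 7 it was 1.14 with an adjusted p of 0.0448, in a fit in which 14.2% of all genes passed. The ratio of Lars to Lars2 was 0.127 to 0.154 in Gdpd3+/+ and 0.0251 to 0.0635 in Gdpd3-/-, the largest shift among 12 pairs of cytosolic and mitochondrial enzymes for the same amino acid. Of all members Lars had the lowest fitted change and Lars2 the highest, so this rank adds nothing to their own values.

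The listed level of Lars2 moved together with that of Gm15564, a transcript whose sequence it shares in part. Among 14451 genes with a mean of at least 1 FPKM and a value above 0 in all 6 libraries, each was ranked by the SD of the log2 ratio of its level to that of Lars2 over the 6 libraries, and Gm15564 ranked 1 (SD 0.0680). It was at 191, 205 and 241 FPKM in Gdpd3+/+ and 364, 687 and 298 FPKM in Gdpd3-/-, and the ratio of Lars2 to Gm15564 was between 0.989 and 1.15 in every library. Next in order came mmu-mir-689-2, Ghr, 2310015A10Rik and Rora, with SDs of 0.0857 to 0.109. In the reference transcripts (GENCODE M21), Gm15564 and the 3894-base Lars2 transcript align over 72 bases with 71 identical, at bases 3278 to 3349 of Lars2. The coding sequence of that transcript ends at base 2908, so the aligned stretch is in the 3' UTR. How many of the reads of Lars2 lie in this stretch is not given by FPKM values, and its part in the level and the difference of Lars2 was not tested. The transcript AY036118, annotated as a pseudogene, was at 254, 251 and 267 FPKM against 424, 456 and 403 FPKM. It rose as well (log2 change 0.73, limma adjusted p 0.0279), yet ranked 744 in likeness to Lars2. The muscle marker sum given above has the same order among the Gdpd3-/- libraries, with replicate 6 highest and replicate 7 lowest, as Lars2 and Gm15564 have. This order is not particular to them. AY036118 has it too, as does the summed level of the cytosolic ribosomal protein genes (31556, 33336 and 30609 FPKM in replicates 5, 6 and 7). A link between Lars2 and the muscle markers was not tested. Without Lars2, the mitochondrial enzymes summed to 99.9 to 107 FPKM in Gdpd3+/+ and 95.2 to 118 FPKM in Gdpd3-/-, with overlap.

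**Figure D3:**
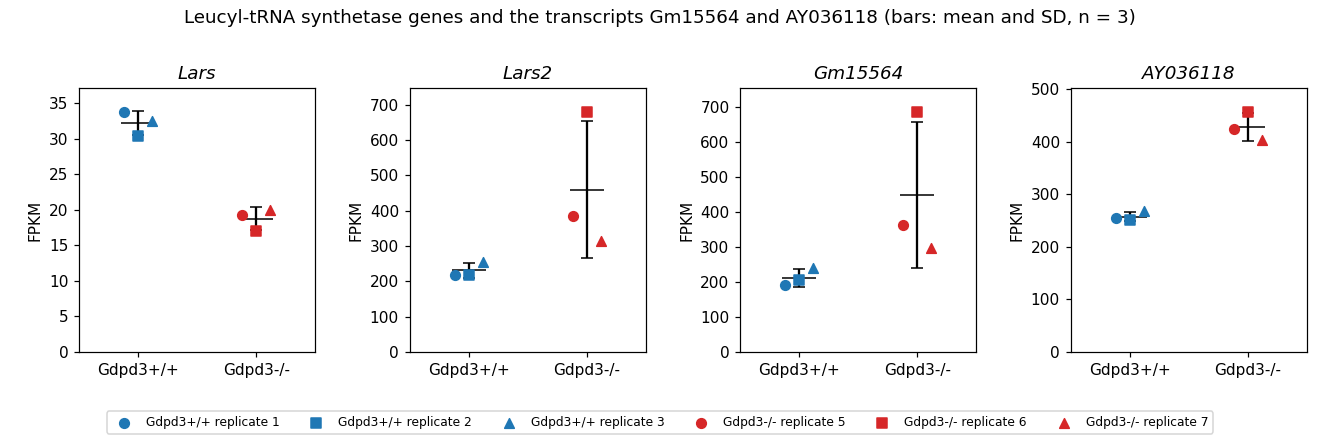
FPKM of Lars, Lars2, Gm15564 and AY036118 in each library (points; blue, Gdpd3+/+; red, Gdpd3-/-), with the mean and SD of each group (n = 3) as a line and bar. Lars is lower in all 3 Gdpd3-/- libraries, and Lars2 and Gm15564 share the same profile over the 6 libraries, both highest in Gdpd3-/- replicate 6 (680 and 687 FPKM).

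Among the 12 pairs of enzymes that charge the same amino acid in the 2 compartments, the ratio of the cytosolic to the mitochondrial gene overlapped between groups in 8. It was higher in every Gdpd3-/- library in 2 pairs, Iars over Iars2 (2.93 to 3.27 against 4.11 to 4.67) and Yars over Yars2 (1.21 to 1.26 against 1.26 to 1.78). The highest Gdpd3+/+ and lowest Gdpd3-/- ratios of the tyrosyl pair differed by very little. It was lower in the leucyl and arginyl pairs already described. A permutation p of 0.1 is the smallest the design allows in each, so no pair could pass a threshold of 0.05. No share of such ratios over other gene pairs was computed. The sequences that Iars, Iars2 and Lars2 share with other genes, given above, make their ratios uncertain too.

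The spread between libraries differed with genotype. The coefficient of variation was larger in Gdpd3-/- than in Gdpd3+/+ for 28 of 32 members, with medians of 19.0% and 7.03%. Replicate 5 was the lowest of the 3 Gdpd3-/- libraries for 19 members and replicate 7 the highest for 22. Replicate 5 is also the shallowest library, at 2.13 Gb. The part of depth in this spread was not tested. No share of all genes with such a spread or order was computed, so these counts are not read as particular to the synthetases.

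**Figure D4:**
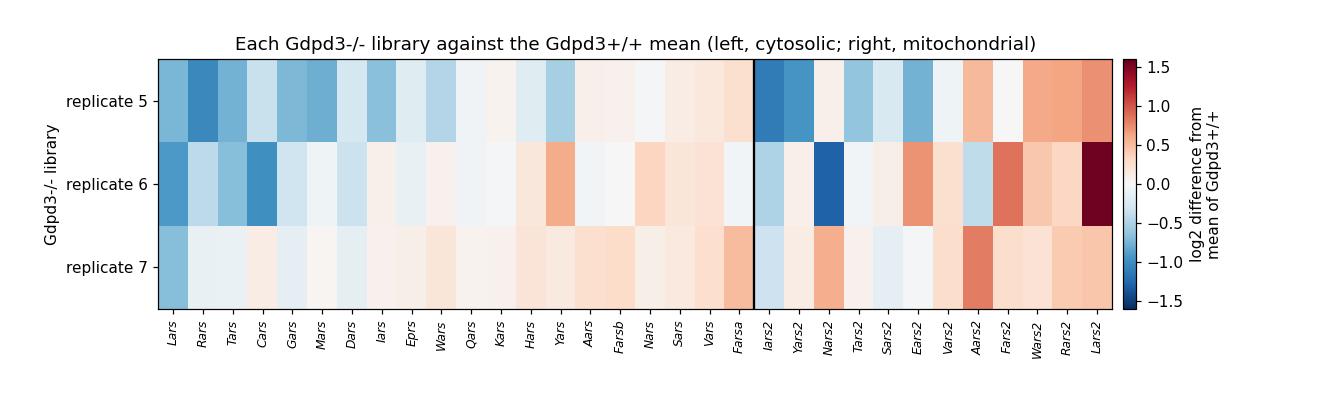
Difference in log2(FPKM + 0.1) between each Gdpd3-/- library (rows) and the mean of the 3 Gdpd3+/+ libraries for the 20 cytosolic (left of the line) and 12 mitochondrial (right) genes, ordered by fitted change (blue, lower; red, higher). Lars is blue and Lars2 red in all 3 rows, while Nars2, Yars and Cars differ in sign between libraries.

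The genes of the response that senses uncharged transfer RNA were examined next. Of 28 genes on a list of the amino acid response, 27 entered the test and none passed (limma, 9 higher and 3 lower with an unadjusted p under 0.05, beside 16.5% and 5.76% of all genes). Their median log2 change was 0.09. Atf4, the central transcription factor, was at 64.5, 73.3 and 67.9 FPKM in Gdpd3+/+ and 86.1, 75.1 and 92.3 FPKM in Gdpd3-/- (log2 change 0.30, adjusted p 0.185). Its target Atf3 had the highest fitted value (1.25, adjusted p 0.535) at low levels with overlap between groups. The lowest was that of Slc3a2, the heavy chain of the large neutral amino acid transporter that imports leucine, at 107, 108 and 114 FPKM against 60.2, 65.2 and 80.8 FPKM (-0.69, SE 0.13, adjusted p 0.0560). The groups did not overlap for Slc3a2, which came close to the threshold without passing it. Its partner Slc7a5 was at 24.1, 27.7 and 24.4 FPKM against 16.9, 18.2 and 23.2 FPKM (-0.40, adjusted p 0.188). Asns, asparagine synthetase and a classical target of the response, overlapped (0.09, adjusted p 0.874).

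The DNA element of this response, TGATGNAA, was searched on both strands of the RefSeq promoters (GRCm38.p6, 250 bases before to 50 after each start site). A promoter was matched for 25 of 32 members. It was not matched for Cars, Hars, Lars, Nars, Rars, Vars and Wars. The letters were present in 5 of 13 cytosolic promoters, in 0 of 12 mitochondrial promoters and in 1304 of 32851 promoters in all (3.97%). A stretch of 30 bases that holds them is shown for each of the 5 because no mitochondrial promoter held one. Capitals mark the element, and each is printed in the direction in which it reads TGATGNAA.
Aars, chr8:111033840-111033869, minus strand: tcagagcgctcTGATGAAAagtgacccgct
Gars, chr6:55037960-55037989, minus strand: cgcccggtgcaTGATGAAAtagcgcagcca
Iars, chr13:49682126-49682155, minus strand: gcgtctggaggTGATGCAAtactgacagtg
Tars, chr15:11399655-11399684, plus strand: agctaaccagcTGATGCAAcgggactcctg
Yars, chr4:129189895-129189924, plus strand: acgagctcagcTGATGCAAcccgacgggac
Of the 5 matches printed, that of Yars reads in the same direction as its gene. The 5 cytosolic genes with the element had fitted log2 changes of -0.51 to 0.10, 3 of them below 0, and the 8 with a matched promoter and no such letters had -0.27 to 0.24, 4 of them below 0. A match of letters is a description of the sequence and no evidence of binding in these cells.

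Of the further genes of aminoacylation, 17 of 18 listed were in the table and tested, and none passed (limma, 4 with an unadjusted p under 0.05, all higher, beside 16.5% of all genes tested and 22.0% of those at 1 FPKM or more). They include the remaining mitochondrial synthetases, the glutamyl-tRNA amidotransferase subunits and editing factors. The median was 0.09, and the highest value was 0.66 for Pstk, the kinase that prepares selenocysteine transfer RNA (8.80, 6.68 and 8.66 against 13.7, 13.9 and 10.7 FPKM, adjusted p 0.0996). Of 15 elongation and termination factors, which use the charged transfer RNAs, 1 passed, beside 1.71% of all genes tested and 2.44% of those at 1 FPKM or more. A single call in so short a list is not read as a result about the list. Eef1b2, a subunit of the exchange factor that reloads eEF1A with GTP, was at 86.4, 84.8 and 86.1 FPKM in Gdpd3+/+ and rose to 121, 127 and 121 FPKM in Gdpd3-/- (log2 change 0.52, SE 0.08, adjusted p 0.0394). Gfm1, a mitochondrial elongation factor, had the lowest value of that list (-0.38, adjusted p 0.109). The list median was 0.20, and it was -0.006 after TMM scaling and 0.09 after quantile normalization.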

How the data were processed

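LT-CML stem cells were sorted, and full-length cDNA was made with SMART-Seq v4 and fragmented with Nextera XT, which does not mark strand, for paired reads of 150 bases. The authors mapped filtered reads with STAR 2.6.1a and deposited FPKM values per gene and library. The submitters' processing notes also name Trimmomatic, Trim Galore, cutadapt 1.16, featureCounts 1.6.1, DESeq2 and the build mm9. A further deposited table holds the authors' own DESeq2 comparison (base mean, fold change and p-values) and was not used.

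FPKM times gene length fell on whole multiples of 1 unit per library in 100% of values (within 0.01 plus 1e-08 of the value), which gave the depth in covered bases. Because the values are FPKM and not counts, a count model was not used. Values were taken as log2(FPKM + 0.1), genes averaging under 0.05 FPKM over the 6 libraries were left out, and limma 3.58.1 (R 4.3.3) was run with its trend option and genotype as the single term. A fold change on this scale understates the change of low genes. The groups share no replicate number. Permutation tests were exact and two-sided (SciPy 1.17.1, 20 assignments). Transcripts were compared with BLAST+ 2.17.0. The fit was tested on simulated data, with a single draw per setting. Where some genes were changed, false calls exceeded the nominal rate, more so where each group had its own spread.

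Alternatives were a pseudocount of 0.01 or 1, no filter, a minimum of 1 FPKM, TMM scaling (weighted trimmed mean, computed on the FPKM values), quantile normalization, array weights, no trend and omission of each library in turn. Named were all 32 members and, of each list, its counts, median, genes past the threshold and largest rise and fall. The members and lists were chosen with earlier results of these data known, and the complex scaffolds, Atf4, Asns, Slc7a5, Cd8a, Gm15564, AY036118, the likeness ranking and the promoter element after values were seen. Coordinates of promoters are GRCm38.p6 and those of genes mm9, and the builds were not mixed. Items withheld from this text are not reported here.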

Additional observations from a re-analysis of the deposited data

How the results depend on the processing

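No paired analysis was possible because the groups share no replicate number. Depth and genotype cannot be told apart, and 3 libraries a group limit what could be detected. The count of genes past the threshold (422) was 225 with a pseudocount of 1, 576 with 0.01, 213 without a filter, 673 with a minimum of 1 FPKM, 153 without the intensity trend and 240 with array weights. It was 361 after TMM scaling (119 higher) and 325 after quantile normalization (119 higher), against 270 higher of 422 before. Leaving out 1 library gave 0 to 3413 genes: 0, 1 and 21 without Gdpd3+/+ replicates 1, 2 and 3, and 187, 462 and 3413 without Gdpd3-/- replicates 5, 6 and 7. Of the members, 1 passed at first, 0 without the trend or with array weights, and 0 to 3 with 1 library left out, the 3 being Lars, Lars2 and Tars without Gdpd3-/- replicate 7. Lars kept its direction in every alternative, with an adjusted p of 0.0211 to 0.119 in those that keep all libraries and 0.0133 to 0.214 in the others. The cytosolic median was -0.25 after TMM scaling and -0.11 to 0.05 with 1 library left out, and the mitochondrial median (0.07 at first) was -0.14 after TMM scaling, -0.10 after quantile normalization and 0.02 to 0.24 with 1 library left out.

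Under TMM scaling the all-gene median went from 0.24 to 0.05, and 8 members turned in sign: Aars (-0.113), Farsb (-0.0897), Hars (-0.145), Kars (-0.175), Nars (-0.0715), Sars (-0.0530), Yars (-0.135) and Vars2 (-0.0470). Quantile normalization turned Farsb (-0.0214), Hars (-0.0844), Kars (-0.116), Nars (-0.0192), Yars (-0.0314) and Vars2 (-0.0259). With 1 library left out, the changes of members whose sign turned ranged from -0.0078 to 0.194 for Hars, -0.30 to 0.0759 for Iars, -0.0188 to 0.0803 for Kars, -0.0559 to 0.0054 for Qars, -0.199 to 0.132 for Wars, -0.189 to 0.373 for Yars, -0.392 to 0.346 for Ears2, -0.605 to 0.330 for Nars2, -0.196 to 0.0422 for Sars2, -0.337 to 0.0118 for Tars2 and -0.429 to 0.106 for Yars2. None of the members named in this paragraph passed in any alternative.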
